A study of Homo sapiens with 3 samples.

Results

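Transcripts of the insulin-like growth factor (IGF) binding proteins, *IGFBP1* to *IGFBP7*, of the insulin receptor *INSR* and of its substrates *IRS1* and *IRS2* were followed in A549 cells after transfection of either strand of *miR-139*. These 10 genes were selected on differences already seen between the same arrays, so their values are a description and carry no test. The probes of each gene were found by the RefSeq accession of the transcript they were designed on, which gave 12 of the 58201 probes of the array and at least 1 probe for each gene. Of the 10 genes, 9 had a signal well above background on all arrays, and *IGFBP5* had none on any array.

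A549 is a human cell line from a lung adenocarcinoma. Cells received the transfection reagent only (mock), *miR-139-5p* at 10 nM or *miR-139-3p* at 10 nM, with 1 Agilent array of 1 colour for each condition, called the mock, 5p and 3p arrays below. The study asked which genes *miR-139-3p* represses in these cells. No array of a control precursor was analysed here, and the strands, given at the same dose, are the only small RNAs to set against each other. There were no replicates, and precision is limited by having a single array of each kind. Since slide 1 carried mock and 5p while slide 2 carried 3p, slide and transfection cannot be told apart for the 3p strand. Of the epithelial markers *KRT8*, *KRT18*, *KRT19*, *EPCAM* and *CDH1*, 5 of 5 were well above background on all arrays, as were 3 of 3 genes often high in A549 (*AKR1B10*, *AKR1C1* and *ALDH1A1*). Of the markers of other cells, the endothelial *PECAM1* was well above background with 0 of its 3 probes. *PTPRC*, *COL1A1* and *DES* each had at least 1 probe above it, with highest signals between 10.2 and 158. Several of these markers differed from mock by over 0.5 on the log2 scale described below. On the 3p array *PTPRC* was at 1.26, *DES* at 1.07, *EPCAM* at 0.97, *COL1A1* at -0.61, *AKR1B10* at -1.43, *AKR1C1* at -0.72, *KRT18* at -0.84 and *KRT8* at -0.74. On the 5p array *COL1A1* was at 1.41, *KRT8* at -0.85, *KRT18* at -0.77, *CDH1* at -0.54 and *KRT19* at -0.52. The part of these differences in the results was not tested.

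IGF binding proteins are secreted proteins that hold IGF1 and IGF2 outside the cell, and they either keep these ligands from their receptor or carry and release them. The receptors for insulin and IGF1 are tyrosine kinases, and IRS1 and IRS2 are the docking proteins through which they reach PI3-kinase and AKT. A few of the genes, *IGFBP1* first among them, are classical targets of FOXO factors, which insulin signalling holds inactive.

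The transfected strands come from opposite arms of 1 precursor and differ in their seed, bases 2 to 8, which pairs with target mRNAs and is given here in capitals. The RefSeq sequences lie on the minus strand of chromosome 11 in GRCh38.p14, at chr11:72615102-72615124 for the 5p strand and at chr11:72615066-72615088 for the 3p strand. They are shown because the genes described here differed between the arrays of these strands.

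miR-139-5p: uCUACAGUgcacgugucuccagu

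miR-139-3p: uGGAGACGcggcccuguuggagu

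Both are 23 bases long and their seeds, CUACAGU and GGAGACG, are not the same. Sites in the 3′UTR of the genes were not analysed here.

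On the 3p array, 5 of the 6 measured binding proteins gave a lower signal than on the mock array. *IGFBP1* was lower by 15.9-fold, *IGFBP3* by 6.69-fold, *IGFBP4* by 5.65-fold and *IGFBP6* by 3.99-fold, and *IGFBP2* was lower by 1.90-fold. Both substrates of the insulin receptor were lower, *IRS1* by 2.30-fold and *IRS2* by 1.72-fold. *INSR*, the receptor itself, was higher by 1.68-fold, and *IGFBP7* lay within the threshold. A difference here is the log2 processed signal, scaled to the 75th percentile of its array, on one array minus that on another, and the threshold on this scale was 0.5. Values for single arrays are processed signals, the brightness of a probe with its background subtracted, before this scaling.

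**Figure D1:**
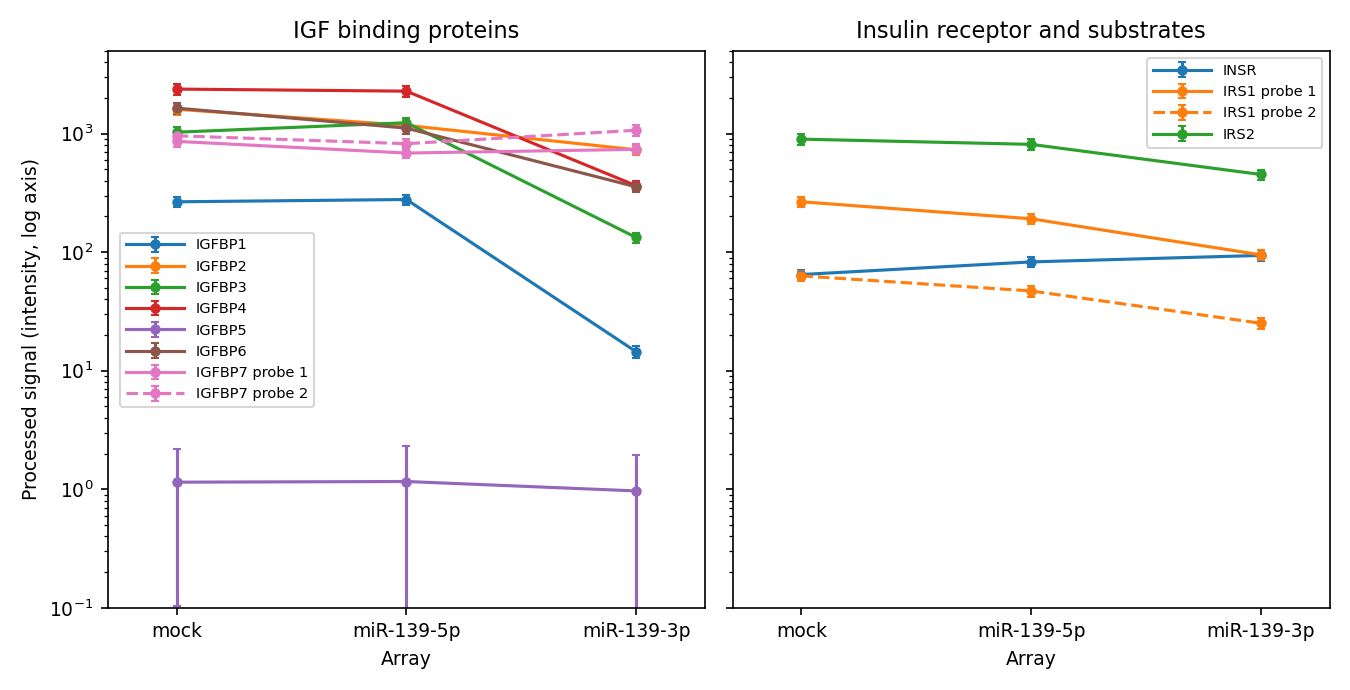
Processed signal (log axis) of each probe of the 10 genes on the mock, 5p and 3p arrays, with the binding proteins on the left and the receptor and its substrates on the right. Bars are the error that Feature Extraction, the software that reads the scanned array, gives each spot, and those of *IGFBP5*, whose signals of 0.969 to 1.16 are not above background, run off the axis. *IGFBP1*, *IGFBP3*, *IGFBP4* and *IGFBP6* drop on the 3p array, while the line of *INSR* goes from 64.8 up to 93.9.

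Among the binding proteins, *IGFBP1* showed the largest difference with the main processing used here. IGFBP1 is a hepatic and decidual binding protein whose gene insulin represses. Its probe gave 266 on the mock array, 278 on the 5p array and 14.5 on the 3p array. The mock and *miR-139-5p* values lie together and the *miR-139-3p* value lies far below them, dim but still well above background. The log2 difference from mock was -3.99, and the scaled signal was 6.29% of that of mock. It was -2.17 with another background correction, normexp with an offset of 50. With that correction *IGFBP3*, at -2.36, and *IGFBP4*, at -2.32, were lower than *IGFBP1*. Only 1 of the 14376 genes with a RefSeq symbol measured on both arrays had a lower value, as *IGFBP1* ranked 2 from the lowest.

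*IGFBP3*, which encodes the main IGF carrier of serum and can also be induced by p53, was printed on each array as 10 spots of 1 probe. Its spots ran from 980 to 1083 on the mock array, from 1195 to 1306 on the 5p array and, with 9 spots after 1 outlier was left out, from 124 to 142 on the 3p array. The mean signals were 1028 ± 28.1 (SD over spots, n = 10), 1235 ± 39.8 (n = 10) and 133 ± 6.41 (n = 9). The spots of the arrays did not overlap, but spots of 1 array share 1 RNA sample, so their spread holds no spread between cultures. The log2 difference from mock was -2.74, and *IGFBP3* ranked 41 from the lowest.

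*IGFBP2*, the other binding protein printed as 10 spots, encodes a protein common in fetal tissue and in many tumours. Its spots ran from 1493 to 1672 on the mock array, from 1126 to 1224 on the 5p array and from 693 to 808 on the 3p array. The means were 1605 ± 52.3 (SD over spots, n = 10), 1175 ± 31.5 (n = 10) and 731 ± 35.8 (n = 10). These spots also did not overlap between arrays, and the value of *miR-139-5p* lay between the others. The log2 difference from mock was -0.93, and *IGFBP2* ranked 1990 from the lowest.

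**Figure D2:**
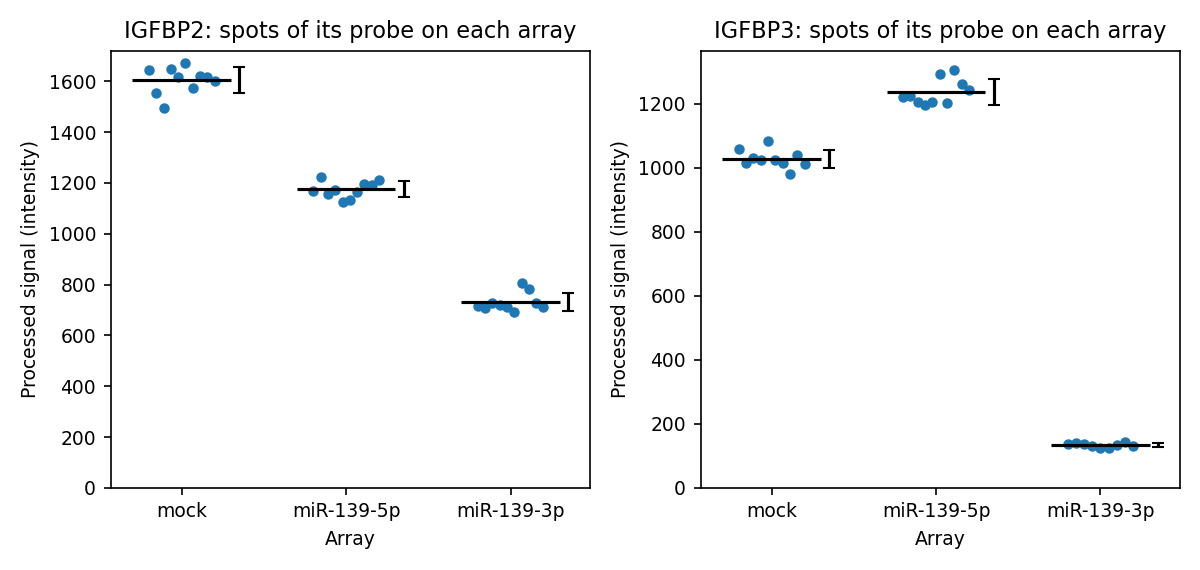
Processed signal of each spot of the *IGFBP2* and *IGFBP3* probes on the mock, 5p and 3p arrays, as points, with the mean as a line and the SD over spots as a bar beside it. *IGFBP3* is near 133 on the 3p array against 1028 on the mock array, and *IGFBP2* steps down from 1605 to 1175 and 731.

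*IGFBP4*, whose product mostly restrains IGF action and is cut by the protease PAPPA, gave 2375 on the mock array, 2281 on the 5p array and 364 on the 3p array. *IGFBP6*, whose product prefers IGF2 over IGF1, gave 1641, 1112 and 356 in the same order. Both genes were thus bright on the mock array and lowest on the 3p array, but they differ in the *miR-139-5p* value, which was close to mock for *IGFBP4* and between the others for *IGFBP6*. The log2 differences from mock were -2.50 for *IGFBP4*, rank 67 from the lowest, and -2.00 for *IGFBP6*, rank 225.

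*IGFBP7* encodes a binding protein with low affinity for IGFs. Its probe A_23_P353035 gave 959 on the mock array, 823 on the 5p array and 1068 on the 3p array. Its other probe, A_22_P00008038, was designed on another transcript and gave 860, 686 and 737. The probes disagreed on the size, with log2 differences from mock of 0.36 and -0.02. Their mean was 0.17, which is below the error of 0.2 to 0.22 that the error model of Feature Extraction gives a difference between these arrays, and it was -0.03 without scaling, so no direction is given for *IGFBP7*.

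*IGFBP5*, the gene next to *IGFBP2* on chromosome 2, had signals of 1.15, 1.16 and 0.969 on the mock, 5p and 3p arrays. None was well above background. *IGFBP1* and *IGFBP3* also lie next to each other, on chromosome 7, and both were far lower with *miR-139-3p*.

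*IRS1* was measured by 2 probes. A_24_P225679 gave 266 on the mock array, 191 on the 5p array and 94.9 on the 3p array, and A_24_P802145 gave 63.1, 47.1 and 25.1. Both probes stepped down in the same order, and their log2 differences from mock for *miR-139-3p* were -1.28 and -1.12, with an SD between probes of 0.11. The median SD between probes of 1 gene was 0.28 over 3889 genes with several probes. The mean for *IRS1* was -1.20, and this spread between probes holds none between cultures or slides. The normexp correction gave -0.72 for *IRS1*. *IRS2*, the substrate that dominates in liver and beta cells, gave 898, 811 and 452, with a log2 difference from mock of -0.78. Its value on the 5p array was close to that of mock.

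*INSR* gave 64.8 on the mock array, 82.8 on the 5p array and 93.9 on the 3p array. It was the only one of the 9 genes past the threshold in the upward direction, with a log2 difference of 0.74 from mock for *miR-139-3p*. It ranked 2344 from the highest of 14376, so many genes lay above it. With normexp the difference was 0.50 and no longer past the threshold.

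Counted together, 7 of the 9 measured genes were lower by over 0.5 with *miR-139-3p* than with mock, 1 was higher and 1 lay within the threshold. Over all 24360 gene names with a value, 21.8% were lower and 35.4% higher in that comparison. Over the 14376 genes with a RefSeq symbol measured on both arrays, 28.9% were lower and 23.9% higher. The median log2 difference was -1.20 for the 9 genes and -2.25 for the 6 binding proteins, against -0.09 for those 14376 genes. As the genes were chosen with these differences known, nothing is read from the counts. On 7 probes for spike-in RNA, which should be alike on all arrays, the same log2 difference ran from -0.07 to 0.35. Fewer cells expressing a gene and less of its RNA per cell cannot be told apart in RNA from a whole culture.

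**Figure D3:**
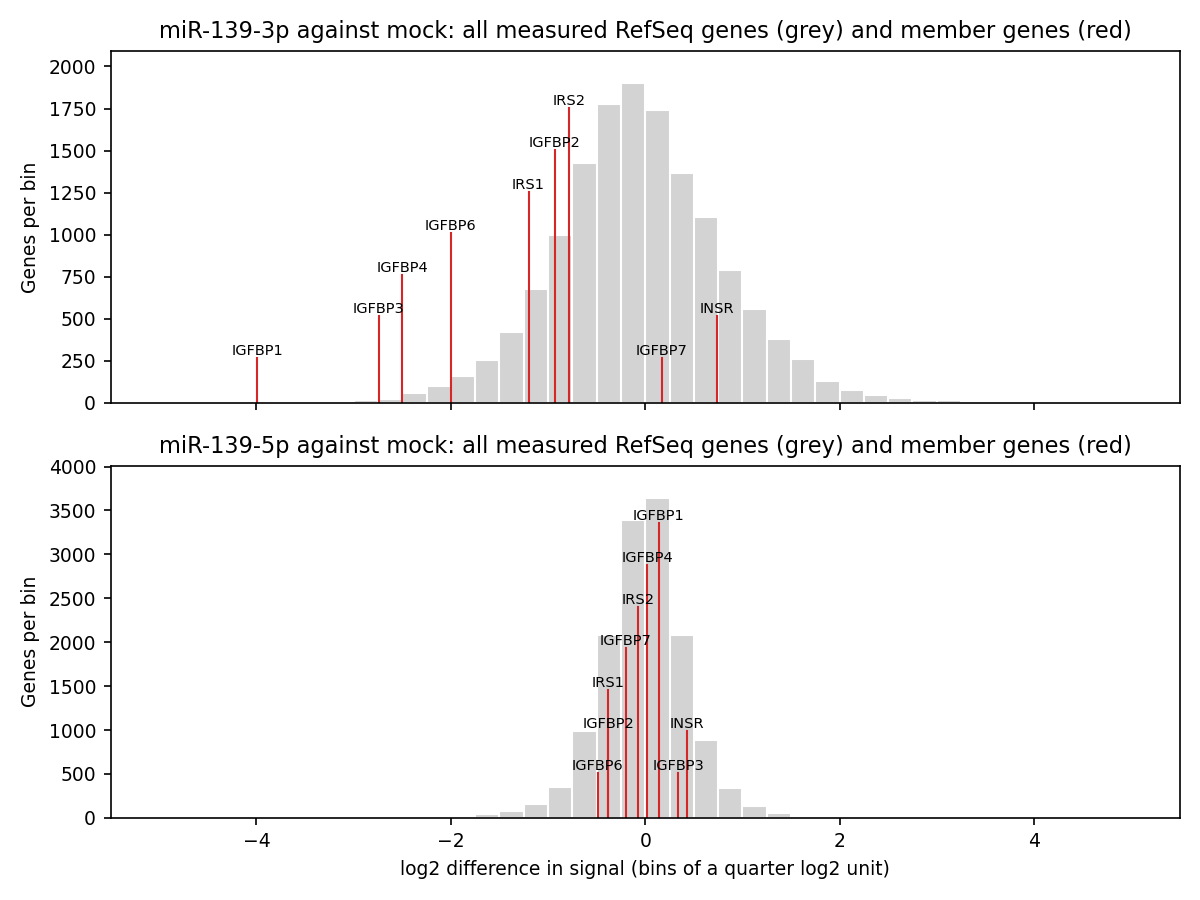
Number of RefSeq genes measured on both arrays in each bin of the log2 difference from mock (grey bars), for *miR-139-3p* in the upper panel and *miR-139-5p* in the lower one, with the 9 measured genes as red lines whose height has no meaning. For *miR-139-3p*, *IGFBP1* at -3.99, *IGFBP3* at -2.74, *IGFBP4* at -2.50 and *IGFBP6* at -2.00 lie in the lower tail, and for *miR-139-5p* all 9 lie between -0.49 and 0.43.

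In the comparison of *miR-139-5p* with mock, 0 of the 9 genes differed by over 0.5 in either direction. Over all 22555 gene names with a value, 12.1% were lower and 10.7% higher than with mock. Over the 14311 genes with a RefSeq symbol measured on both arrays, the shares were 11.5% and 10.2%. *IGFBP6* came nearest to the threshold from below, at -0.49, and was past it under 3 of the 10 other processing settings that give single genes a value. *IGFBP2* and *IRS1* were both at -0.38. *INSR* at 0.43 and *IGFBP3* at 0.34 were on the other side of mock, and *INSR* was past the threshold under 1 of these 10 settings. *IGFBP1* at 0.14, *IGFBP4* at 0.02, *IRS2* at -0.07 and *IGFBP7* at -0.20 differed from mock by no more than the error of 0.2 to 0.21 of a difference between these arrays. The median over the 9 genes was -0.07. The *miR-139-5p* comparison shares its mock array with that of *miR-139-3p*.

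**Figure D4:**
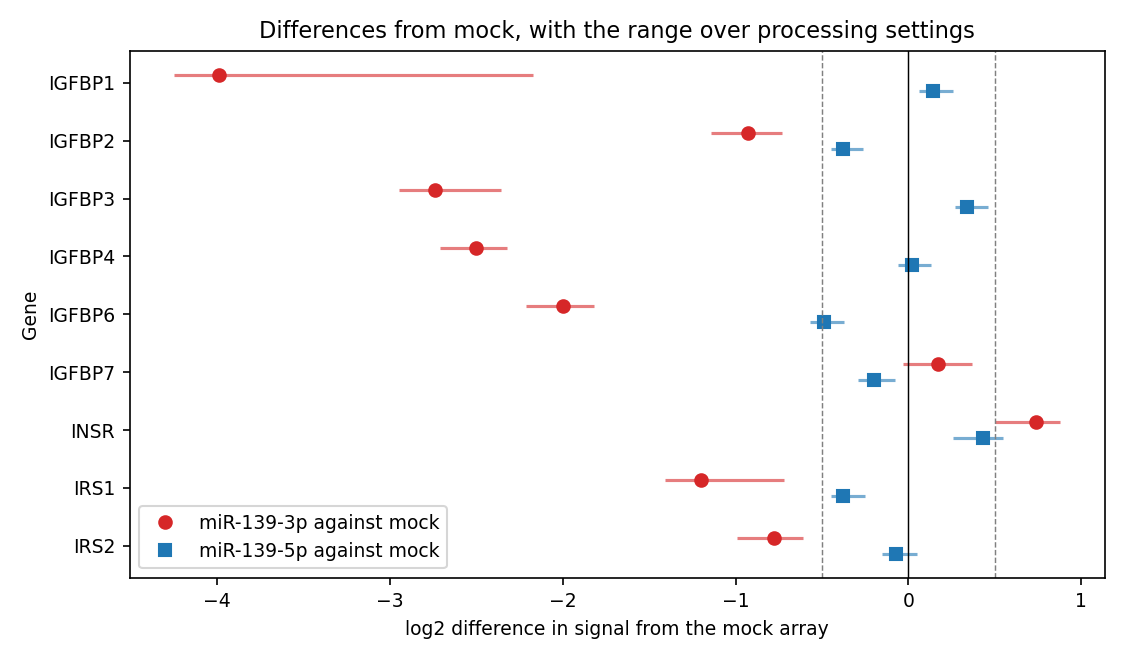
Log2 difference in signal from the mock array for the 9 measured genes, on the 3p (circles) and 5p (squares) arrays, with the range over the main and 10 other processing settings as a line and dashed lines at 0.5 in each direction. For *miR-139-3p* the 7 lower genes keep their side of -0.5 under each of these settings, the line of *INSR* reaches 0.50 with another background correction, and that of *IGFBP7* crosses 0 without scaling.

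Set directly against each other, the strands differed in 7 of the 9 genes by over 0.5, each lower with *miR-139-3p*, and in 0 genes the other way. Over all 24017 gene names with a value, 21.8% were lower and 34.9% higher. Over the 14036 genes with a RefSeq symbol measured on both arrays, 29.3% were lower and 23.3% higher. *IGFBP1* was 17.5-fold lower with *miR-139-3p* than with *miR-139-5p*, *IGFBP3* 8.46-fold and *IGFBP4* 5.71-fold. The log2 difference of *IGFBP1* was -4.13, and -2.28 with normexp, which gave -2.65 for *IGFBP3* and -2.29 for *IGFBP4*. The log2 difference was -1.51 for *IGFBP6*, -0.82 for *IRS1*, -0.71 for *IRS2* and -0.55 for *IGFBP2*. *IGFBP2* was the one nearest to the threshold and was past it under 7 of the 10 other settings, and *IRS1* under 9, the exception being normexp at -0.47. *INSR*, at 0.32, and *IGFBP7*, at 0.37, lay within the threshold, but *IGFBP7* was past it under 4 of the 10 other settings, with a range of 0.06 to 0.58. *INSR* lay above mock on both of these arrays. These comparisons again set slide 2 against slide 1.

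Promoters were searched from 250 bases before to 50 bases after the annotated start, in the RefSeq table of GRCh38.p14, for letters of 3 elements on both strands. The table gave 10 windows for 8 of the genes, and *IGFBP1* and *IGFBP7* were not searched. CAAAACA, the core of the insulin response element that FOXO factors bind, was found in 4.92% of all 35116 windows and, among the genes here, in that of *IRS2*. TATAAA was found in 11.5% of all windows and, among the genes here, in that of *IGFBP4*. GGGCGG, the core of the GC box, was found in 45% of all windows and in those of 7 of the 8 genes, *IGFBP5* being the exception. The 30 bases around the first match lie at chr13:109786605-109786634 on the minus strand, with the match 40 bases before the start of *IRS2*, and those around the second at chr17:40443410-40443439 on the plus strand, with the match 29 bases before the start of *IGFBP4*. They are shown, with the matched letters in capitals as they stand on the strand of the gene, because each element was found in only 1 of the searched genes.

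IRS2: gagtcacatgtTGTTTTGctcttcttagtt

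IGFBP4: ccagggaccggTATAAAgtccgggggagcc

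These are matches of letters only, and binding was not measured.

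Among genes with a RefSeq symbol measured on all 3 arrays, 13909 in number, those with the pair of differences from mock nearest to that of *IGFBP1* were sought. *S100P*, which encodes a calcium-binding protein, was the nearest, with a log2 difference of -3.78 on the 3p array and 0.11 on the 5p array. It was followed by *COX8A*, *UNCX*, *NRGN* and *SLC2A1*, the gene of the glucose transporter GLUT1, with -3.88 on the 3p array and 0.58 on the 5p array. Only 1 gene lay within 0.28 of *IGFBP1*, the median SD between probes. For *INSR*, 599 genes lay within that distance, of which *NEMF*, *ANXA2R-OT1*, *C5orf15*, *LINC02582* and *CHM* were the nearest. Few genes thus lay near *IGFBP1* and many near *INSR*.

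The remaining genes of the pathway were taken from 8 lists with 88 genes, of which 74 had a value on the 3p and mock arrays and 72 on the 5p and mock arrays. In the 3p comparison, 20 of the 74 were lower by over 0.5 and 16 higher, with a median of -0.07. The balance depended on the scaling, with 16 lower and 22 higher when the percentile was taken over detected probes, and 28 lower and 13 higher without scaling. In the 5p comparison, 11 of the 72 were lower and 7 higher, with a median of -0.06. The background for these counts, and for those of each list below, is the share over all names given above. With *miR-139-3p* this was 21.8% lower and 35.4% higher, and with *miR-139-5p* 12.1% and 10.7%. The counts include 4 and 2 genes for which only a bound could be had.

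Of 4 ligands and receptors with a value, 1 was higher by over 0.5 with *miR-139-3p*. *IGF1R*, the receptor through which IGF1 and IGF2 act, gave 848 on the mock array, 760 on the 5p array and 750 on the 3p array, with log2 differences of -0.09 and 0.03. *IGF2R*, which clears IGF2, was at 0.33 on the 5p array and 0.45 on the 3p array. *IGF2* itself was at -0.11 and -0.44, from the brighter of its probes, and *IGF1* was not well above background on any array. *INS* was above background on the 3p array only, at a signal of 8.60, which gives at least 2.06-fold over mock. No gene of this list was lower by over 0.5 in either comparison with mock.

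Of the regulators of IGF binding proteins, 2 of 5 were higher with *miR-139-3p* and 0 lower. *ADAM12*, named after its values were seen, counts as within at 0.08, which rests on the only one of its probes above background on both arrays. Its brightest probe gave 29.4 on the mock array and was not well above background on the 3p array, a bound of -2.56. A dimmer probe went from 9.20 to 4.04, not well above background, a bound of -0.88. The probe behind 0.08 was also dim, with 7.28 and 6.64. *PAPPA*, the protease that cuts IGFBP4 and frees its ligand, gave 862 on the mock array, 1225 on the 5p array and 1730 on the 3p array. Its log2 differences from mock were 0.58 and 1.21, so *PAPPA* was highest where its substrate gene *IGFBP4* was lowest. *IGFALS*, whose product joins IGFBP3 or IGFBP5 and an IGF in the serum complex, was dim, with 10.2 on the mock array and 30.5 on the 3p array, a log2 difference of 1.78. *STC2*, an inhibitor of PAPPA, was at -0.42 for *miR-139-3p*. Its relative *STC1*, named after its values were seen, gave 5.55 on the mock array, 24.4 on the 5p array and 4.50 on the 3p array, and its difference of 2.21 was the largest of any listed gene for *miR-139-5p*.

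Other genes whose proteins have an IGFBP domain were lower in 6 of 9 cases and higher in 2 with *miR-139-3p*, with a median of -0.69. Of the 2, *CRIM1*, which encodes a membrane protein and was named after its values were seen, counts only through a bound of 0.74. *KAZALD1* was the lowest of them and gave 45.6 on the mock array, 16.7 on the 5p array and 12.0 on the 3p array. Its log2 differences were -1.37 and -1.72, so unlike *IGFBP1* it was lower with both strands. *CCN2*, the connective tissue growth factor and a target of YAP, was the highest, at 1.47 on the 3p array and -0.52 on the 5p array. With *miR-139-5p*, 4 of 8 genes of this list were lower and 0 higher.

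Below the receptor, adaptors were lower in 2 of 8 genes and higher in 1 with *miR-139-3p*. The shares over all names were 21.8% and 35.4%. *SHC2*, an adaptor with an SH2 domain, gave 23.6 on the mock array, 15.2 on the 5p array and 242 on the 3p array, an 11.8-fold higher signal than mock. *DOK4*, a docking protein related to the IRS family, was lowest at -1.82. Of PI3-kinase and AKT genes, 3 of 16 were lower and 1 higher, beside the same shares. *AKT1* was lowest at -0.89, from 1 probe. *AKT2*, named after its values were seen, was at -0.35 as a mean, but its probes disagreed at -1.22, -1.37 and 1.54. *PIK3R3*, a regulatory subunit of PI3-kinase, was highest at 0.84, from a dim probe with 12.6 on the mock array.

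Genes that restrain the pathway were lower in 7 of 14 genes and higher in 2 with *miR-139-3p*, with a median of -0.46. The shares over all names were 21.8% and 35.4%. *PHLPP1*, a phosphatase of AKT, was lowest at -1.88. *TSC1*, which restrains mTOR complex 1, was highest at 1.64, with 188 on the mock array and 506 on the 3p array. With *miR-139-5p*, 0 of 15 of these genes passed the threshold in either direction.

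FOXO factors and their known targets were higher in 6 of 15 genes and lower in 2 with *miR-139-3p*, with a median of 0.39. Of the 15, 2 had only a bound, and over all names 35.4% were higher and 21.8% lower. *FOXO1* was at -0.08 and *FOXO3* at -0.50, just inside the threshold. *GADD45A*, a growth arrest gene that p53 also induces, was highest at 1.79, and *BCL6*, a transcriptional repressor, lowest at -1.03 among genes measured on both arrays. *IGFBP1*, a classical target of the same factors, was at -3.99, and the part of FOXO factors in this was not tested. With *miR-139-5p*, 1 of 14 was higher and 3 lower.

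The proteins that bind *IGF2* mRNA were the only list with every gene past the threshold for *miR-139-5p*. *IGF2BP1* was at 1.12, *IGF2BP2* at 1.15 and *IGF2BP3* at 0.65 in that comparison. For *miR-139-3p* the values were 0.05, 0.35 and 0.78 in the same order. *IGF2BP1* gave 632 on the mock array, 1303 on the 5p array and 567 on the 3p array. A link between these genes and those of the IGF binding proteins was not tested.

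**Figure D5:**
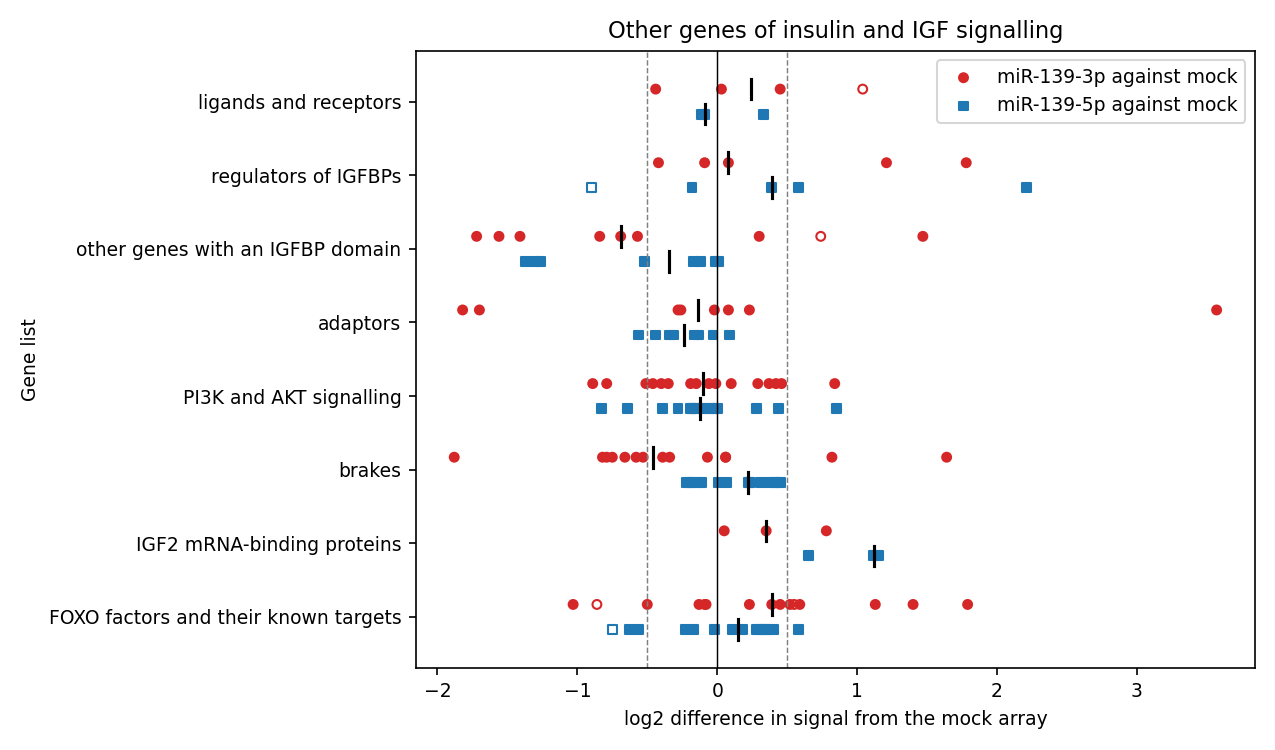
Log2 difference in signal from the mock array for each gene of the 8 lists, on the 3p (circles) and 5p (squares) arrays, with open symbols for bounds, the median of each list as a black bar and dashed lines at 0.5 in each direction. *SHC2* at 3.57 stands alone at the right, and the *IGF2BP* genes lie above 0.5 for *miR-139-5p*.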

How the data were processed

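RNA of A549 cells was hybridised to 3 Agilent arrays, 1 per group, with groups taken from the titles of the samples. Spot intensities were deposited by the authors as read by Agilent Feature Extraction 12.1.1.1, with the background subtracted and no scaling between arrays. The deposited log2 values per probe matched the quantile-normalized log2 signals (median difference 0.003) and served as an alternative.

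The log2 processed signal minus that of the 75th percentile of the array was computed over 60901 spots per array. Percentiles were 93.6 for mock, 88.9 for 5p and 81.0 for 3p. Feature Extraction's outlier spots (614, 935 and 1526) were left out, spots of a probe were averaged, and a probe was well above background where at least 50% of its spots were. This held for 49.9%, 48.1% and 53.1% of spots, with 0 saturated. The median SD between 10 spots of a probe was 0.05, 0.05 and 0.06. A gene's value is the mean over its probes above background on both arrays, or, where only 1 array measured it, a bound from the lowest signal above background on the other. RefSeq symbols came from the annotation of GRCh38.p14, and 24751 of 25277 probes with an NM accession matched.

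The genes, the 8 lists and the naming rule were chosen with earlier results of these data known. The rule names all 10 genes, the highest and lowest measured gene of each list for *miR-139-3p*, key ligands, receptors and regulators, and the 5 nearest patterns for *IGFBP1* and *INSR*. A gene that the rule names is not reported here. No test was possible with 1 array per group. In all, 11 alternatives were run, and the steps were tested on simulated data. Python 3.11.15 with numpy 2.4.6, pandas 2.3.3 and matplotlib 3.10.9, and R 4.3.3 with limma 3.58.1 (normexp, offset 50, on median signals) were used.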

Additional observations from a re-analysis of the deposited data

How the results depend on the processing

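No paired analysis was possible because each group had 1 array. Of 270 values of single genes under the 10 alternatives that give them, 254 moved by no more than the spread between probes, 16 moved by more and 0 called values changed sign. Arrays are named by strand. Relative to 0 genes of the 9 higher with 3p than with 5p, 1 was higher with the percentile over probes above background on all arrays, with quantile normalization, with the brightest probe and with the deposited log2 values. Against mock, 0 rather than 1 was higher with 3p under normexp or a threshold of 1. With 5p, 1 was higher under spike-in scaling and 1 lower under the percentile over detected probes, no scaling or normexp. At a threshold of 1, 4 rather than 7 were lower with 3p than with 5p, and 5 rather than 7 lower with 3p than with mock. Of the listed pathway genes, 16 were higher and 20 lower with 3p, which became 8 and 12 under normexp and 9 and 7 at a threshold of 1, 22 and 16 with the percentile over detected probes, and 13 and 28 without scaling or with spike-in scaling. With 5p the 7 higher became 13 under spike-in scaling and 3 at a threshold of 1, and the 11 lower became 1 under normexp and 3 at a threshold of 1. *IGFBP1* against mock went from -3.99 to -2.17 under normexp, which compresses dim signals through its offset.

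Over all names, the higher share of those past the threshold with 3p was 61.9%. It was 50.3% with quantile normalization, 47.3% without scaling, 48.4% with spike-in scaling, 46.4% with normexp and 50.6% with the deposited values, and higher with the percentile over detected probes (70.5%) and without the filter on dim probes (66.5%). For 5p it was 47.0%, but 34.7% without scaling and 67.1% with spike-in scaling. Between the strands it was 61.5%, and 71.6% with the percentile over detected probes, 51.0% with quantile normalization, 40.7% with spike-in scaling, 46.6% with normexp and 51.2% with the deposited values. At a threshold of 1, 2224 names were lower and 4151 higher with 3p, and 516 and 424 with 5p. Normexp gave 3264 and 2825, and 727 and 588. Without the filter on dim probes, 13736 were higher with 3p, and 5328 lower and 5809 higher with 5p. Spike-in scaling gave 1799 and 3668 with 5p. The median over measured names with 3p, 0.09, moved to 0.23 with the percentile over detected probes and to -0.12 without scaling. Dim probes, such as those of *IGFALS* and *STC1*, limit what can be read from single values.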

Other observations

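In the gene order of the reference annotation, tensin genes, which encode proteins that link integrins to actin, lie beside several IGF binding protein genes. This look was chosen after the values were seen. *TNS4*, next to *IGFBP4*, differed from mock on the log2 scale by -2.38 (3p) and -0.03 (5p), close to the -2.50 and 0.02 of *IGFBP4*. *TOP2A*, the other neighbour of *IGFBP4* and a gene of cycling cells, was at -2.29 and -0.09. *TNS3*, next to *IGFBP3*, was at -0.59 and -1.04, where *IGFBP3* was at -2.74 and 0.34. *TNS2*, with 1 gene between it and *IGFBP6*, was at -1.27 and -0.76, where *IGFBP6* was at -2.00 and -0.49. *TNS1*, with 1 gene between it and the unmeasured *IGFBP5*, was at 0.74 and -0.22. Each 3p value rests on 1 probe, and a shared cause was not tested.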
